A study of Danio rerio with 24 samples.

Results

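Among the 32520 genes counted in zebrafish embryos, 32 met a rule that picks RNAs already present at 3 hours post fertilization (hpf) that were lower an hour later when transcription was blocked, but not when embryos were left alone. Levels were taken as CPM (read counts per 1000000 counts of the library), and L is log2 of a group's mean CPM plus 1. A member had a mean of at least 10 CPM in actinomycin D embryos at 3 hpf, an L at least 0.6 lower at 4 than at 3 hpf in actinomycin D embryos, and an L no more than 0.1 lower at 4 than at 3 hpf in untreated embryos. The members were thus chosen by the actinomycin D and untreated values, which are given as descriptions without a test, whereas the oligomycin libraries took no part in the choice. Where oligomycin libraries of a single member are set against actinomycin D or untreated ones, the choice can have a part in their separation.

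All embryos were wild type (TLAB strain) and whole, so fewer cells of a kind and less RNA per cell cannot be told apart. The groups were embryos kept in 1 µM oligomycin, which inhibits the mitochondrial ATP synthase, embryos exposed to 10 µg/ml actinomycin D, which blocks transcription, and untreated embryos, each at 4 and at 3 hpf and with 4 libraries per group. The treatment protocol puts both inhibitors in the medium from laying on, while the design text describes actinomycin embryos as injected, so the route is unsettled. The series set out to detect genes of zygotic genome activation in oligomycin embryos, with the other 2 treatments as controls, and the number of embryos per library was not given in the sources used here.

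The early zebrafish embryo runs on RNA laid down by the mother in the egg. In the maternal-to-zygotic transition the embryo's own genome is switched on in the blastula while much of the maternal store is degraded, partly by factors carried in the egg and partly by products of the new genome. A gene whose maternal RNA decays while the embryo transcribes a new supply can show a steady or growing total, and only a block of transcription lets the decay be seen. Counts per gene do not separate maternal from zygotic molecules, so new transcription of the members was not measured directly here.

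Of the 32520 genes, 8265 reached 10 CPM in actinomycin D embryos at 3 hpf. An L lower by 0.6 or more with actinomycin D was seen in 934 of them, and 33 of these 934 (3.53%) were held in untreated embryos, whereas 4082 of all 8265 (49.4%) were. NOCT (ENSDARG00000077726), a gene linked to deadenylation, was the 1 gene set aside from the 33 by name, leaving 32. BTG1 (ENSDARG00000027249), also set aside by name, had an L change of 0.11 in actinomycin D embryos and did not meet the rule. The members nearest to the CPM floor were GNL3L and mrpl20 at 11.1 and 11.5 CPM, with POLR2K (ENSDARG00000075616) and EML6 (ENSDARG00000102755) just below it at 9.35 and 9.11 CPM. At the actinomycin D threshold fut9b.1 and RRP15 lay inside at -0.61, and CLK1 (ENSDARG00000005908) and atpaf1 (ENSDARG00000042799) outside at -0.60 and -0.59. At the untreated threshold SNRPF and GNL3L lay inside at -0.08 and -0.06, and HDAC11 (ENSDARG00000087573) and ENSDARG00000117632 outside at -0.10 and -0.11.

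Total counts ran from 1453642 to 3431533 per library with a median of 2675171, so that 1 count was worth between 0.291 and 0.688 CPM. The title numbers of the libraries form 2 series of 12 libraries, with 2 libraries of every group in each, and 4 sets of 6, with 1 library of every group in each, and what the numbers mark is not stated. As a check of the labels, the summed level of 30 known first zygotic genes was 629 to 2969.8 CPM in oligomycin embryos at 4 hpf and 135 to 519 CPM at 3 hpf. In actinomycin D embryos it was 35.0 to 51.3 CPM in 3 of the 4 libraries at 4 hpf and 207 CPM in replicate 4, and 32.0 to 41.6 CPM at 3 hpf. In untreated embryos it was 3236 to 5749 CPM at 4 hpf and 218 to 1088 CPM at 3 hpf.

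In actinomycin D embryos the L change ran from -1.32 to -0.61 over the 32 members, with a median of -0.84. In untreated embryos the changes ran from -0.08 to 3.28 around a median of 0.24. In oligomycin embryos, whose libraries did not choose the members, the changes ran from -0.39 to 1.63 around a median of 0.01. The plot of all 32 changes shows the 3 treatments side by side, and the kinase gene pim2 and the navigator gene nav2b stand apart in oligomycin embryos.

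**Figure D1:**
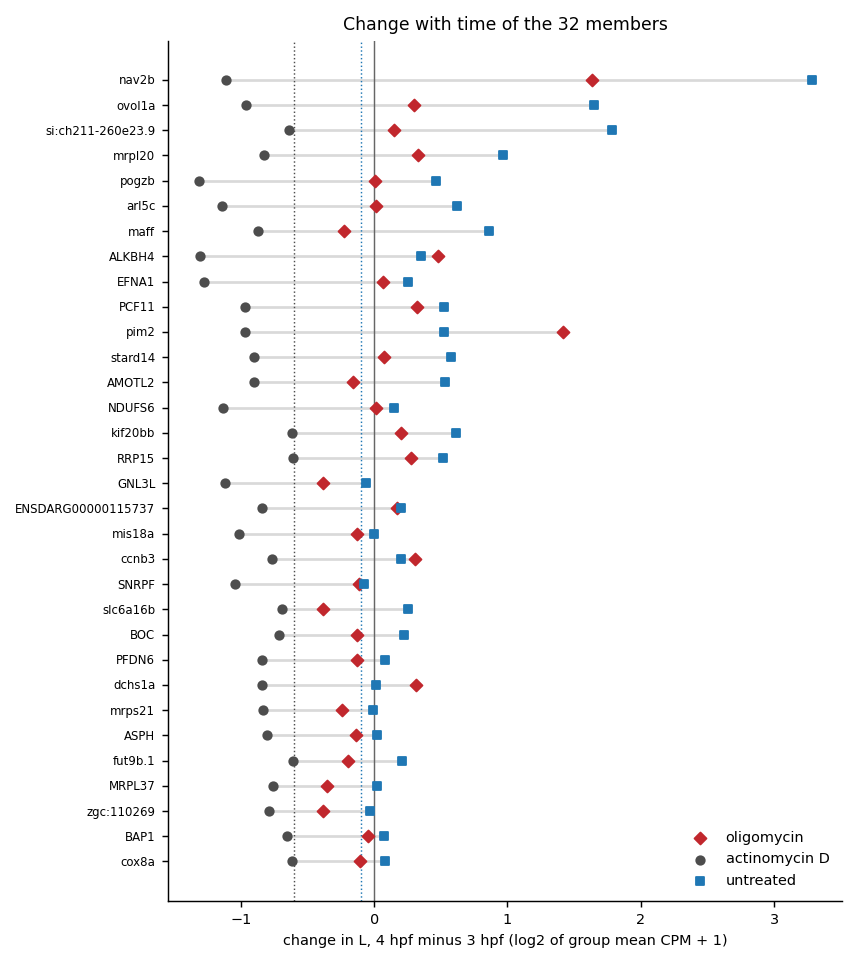
Change in L (log2 of group mean CPM plus 1) from 3 to 4 hpf for each of the 32 members, ordered by the gap between untreated (squares) and actinomycin D embryos (circles), with oligomycin embryos as diamonds and the rule's thresholds as dotted lines. Oligomycin embryos lie between -0.39 and 0.48 for 30 members and at 1.63 and 1.42 for nav2b and pim2.

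By edgeR's quasi-likelihood test over 11238 genes with Benjamini-Hochberg adjustment, 1 of the 32 members, pim2, rose between 3 and 4 hpf in oligomycin embryos and 0 fell. Among all genes tested 0.498% were called higher and 0.0178% lower. With library set as a blocking term those shares were 0.917% and 0.0534%, and pim2 was again the only member called. Of the 8265 genes at the CPM floor, 5 were called higher and 1 lower without the block. At an unadjusted p under 0.05 2 members were higher, pim2 and nav2b (6.25%), beside 5.22% of all genes tested and 2.69% at the floor. In the other direction 0 members were lower (beside 2.14% and 2.41%). The same 2 members were also those whose 4 libraries at 4 hpf all lay above the 4 at 3 hpf, a pattern seen in 2.44% of all genes tested, and 0 members showed the reverse, which 1.57% of genes did. The other 30 members had edgeR adjusted p values from 0.732 to 0.996 there, and a p of that size does not show that their levels were the same.

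The signalling, surface and cytoskeletal members held the widest range. nav2b (ENSDARG00000001879) encodes a member of the neuron navigator family, which binds the cytoskeleton. Its level was 18.3, 19.8, 21.3 and 73.7 CPM in the oligomycin libraries at 4 hpf, against 11.1, 12.6, 7.57 and 9.03 CPM at 3 hpf. In actinomycin D embryos it was 5.57, 3.55, 4.77 and 5.88 CPM at 4 hpf and 7.12, 16.5, 12.1 and 11.6 CPM at 3 hpf. In untreated embryos it was 139, 122, 48.5 and 71.4 CPM at 4 hpf and 5.05, 11.1, 10.5 and 8.97 CPM at 3 hpf. The untreated and the oligomycin libraries at 4 hpf all lay above every library at 3 hpf, and oligomycin replicate 4 was far above the other 3. The fitted log2 fold change from 3 to 4 hpf in oligomycin embryos was 1.78 (SE 0.431, adjusted p 0.0609) by edgeR. It was 0.70 in the first library series and 2.54 in the second, which holds replicate 4, and 0.97 (edgeR adjusted p 0.646) without that library alone. Among the oligomycin libraries at 4 hpf the first zygotic genes were also highest there, and the part of this in the nav2b value was not tested.

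pim2 (ENSDARG00000059001) encodes a serine/threonine kinase of the Pim family, known in mammals for promoting cell survival. It stood at 60.0, 143, 97.2 and 154 CPM in oligomycin embryos at 4 hpf, against 31.5, 49.1, 31.6 and 54.8 CPM at 3 hpf. In actinomycin D embryos it stood at 16.3, 14.7, 18.8 and 22.8 CPM at 4 hpf and 39.7, 23.0, 39.9 and 43.2 CPM at 3 hpf, and in untreated embryos at 91.6, 65.0, 108 and 82.4 CPM at 4 hpf and 73.8, 78.7, 43.3 and 43.9 CPM at 3 hpf. All oligomycin libraries at 4 hpf exceeded all at 3 hpf, while the oligomycin and untreated libraries at 4 hpf overlapped. The rise in oligomycin embryos was 1.46 (SE 0.277, adjusted p 0.0177) on the log2 scale by edgeR, and with a block for library set it was 1.44 (SE 0.300, edgeR adjusted p 0.0315). The call was lost without oligomycin 3 hpf replicate 1 or 3 or oligomycin 4 hpf replicate 4 (edgeR adjusted p 0.121, 0.0777 and 0.116), with log2 fold changes of 1.34, 1.35 and 1.25. Within a single library series it was not called either, at 1.34 in the first and 1.54 in the second (edgeR adjusted p 0.845 and 0.110).

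**Figure D2:**
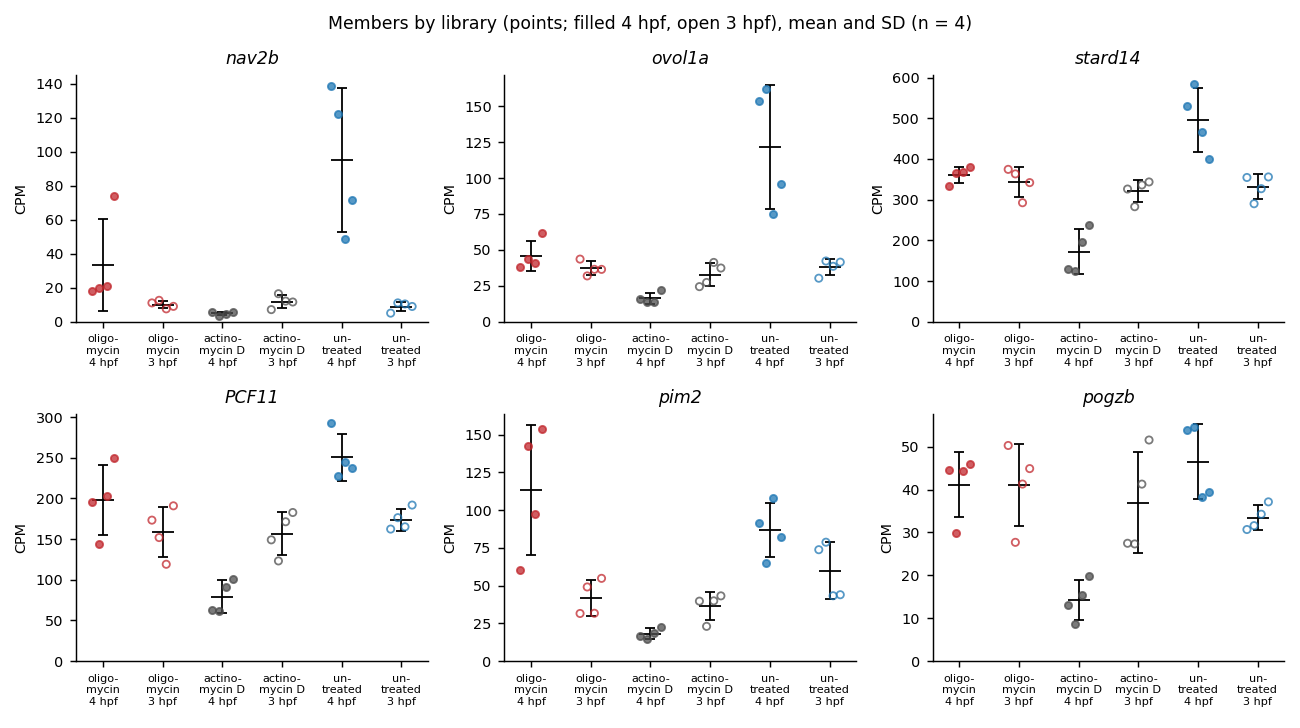
CPM of 6 members in each of the 24 libraries (points, filled at 4 hpf and open at 3 hpf; linear axes), with the mean and SD of the 4 libraries of each group. The actinomycin D libraries at 4 hpf are the lowest group in every panel, and the oligomycin libraries at 4 hpf of nav2b and pim2 lie above those at 3 hpf.

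EFNA1 (ENSDARG00000018787), matched to efna1b in RefSeq, encodes an ephrin-A ligand, a membrane-anchored signal for Eph receptors. Outside library set 2 it stood at 53.9, 56.7 and 40.1 CPM in oligomycin embryos at 4 hpf and at 59.7, 53.7 and 37.3 CPM at 3 hpf. The corresponding actinomycin D values were 14.9, 27.1 and 17.3 CPM at 4 hpf and 49.8, 61.0 and 39.0 CPM at 3 hpf, and the untreated values 46.6, 41.8 and 42.9 CPM at 4 hpf and 43.5, 58.0 and 31.9 CPM at 3 hpf. In these sets actinomycin D embryos at 4 hpf were the lowest and the other groups overlapped.

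Set 2 differed. There EFNA1 had 15 counts in oligomycin embryos at 4 hpf and 2 at 3 hpf, 1 count in actinomycin D embryos at 4 hpf and 1 at 3 hpf, and 56 counts in untreated embryos at 4 hpf and 9 at 3 hpf. In CPM these are 8.27 and 0.839 with oligomycin, 0.508 and 0.433 with actinomycin D, and 32.8 and 3.69 in untreated embryos. The untreated 4 hpf library of the set thus came near the other sets although its 3 hpf libraries lay close to 0, the actinomycin D library did not, and the oligomycin library lay in between. The mean log2 of CPM plus 1 over the 3 libraries of set 2 at 3 hpf was 4.38 below that of the other sets, the widest such deviation of any set among the 32 members, the next being 1.07 for ALKBH4, also in set 2. With 1 library per group in the set these values have no replicate. Without set 2, an alternative chosen after seeing the data, the L change of EFNA1 was 0.00 in oligomycin, -1.29 in actinomycin D and -0.02 in untreated embryos, and it still met the rule. Leaving out untreated 3 hpf replicate 2 alone took it out of the list. What set 2 stands for was not tested.

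**Figure D3:**
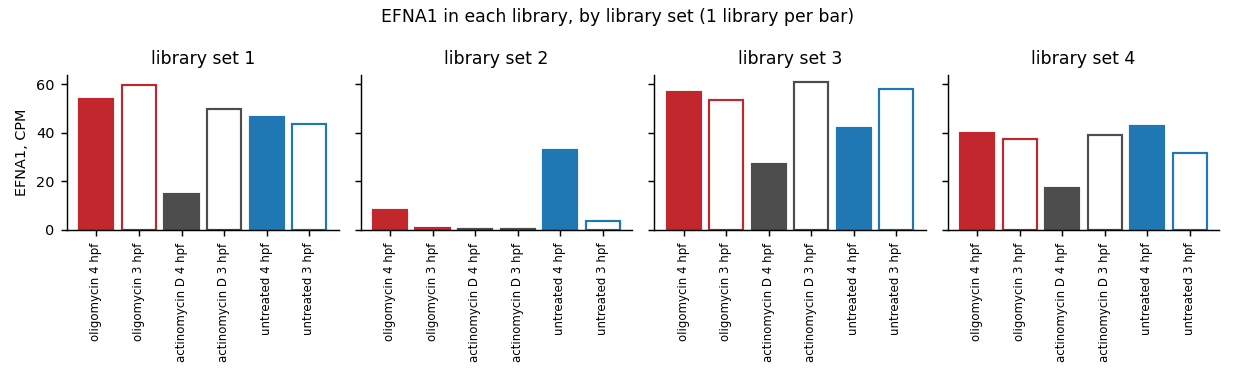
EFNA1 in CPM in each library, 1 bar per library, split by library set (filled bars at 4 hpf, open bars at 3 hpf). In set 2 the 3 hpf bars and the actinomycin D bars are at 3.69 CPM or less, with the untreated 4 hpf library at 32.8 CPM and the oligomycin 4 hpf library at 8.27 CPM.

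AMOTL2 (ENSDARG00000061923), matched to amotl2a in RefSeq, encodes an angiomotin-family scaffold that binds the Hippo pathway effector Yap. It averaged 57.3 ± 9.32 CPM in oligomycin embryos at 4 hpf and 64.2 ± 2.88 CPM at 3 hpf, 30.0 ± 6.38 and 56.9 ± 1.75 CPM in actinomycin D embryos, and 86.4 ± 10.6 and 59.5 ± 7.48 CPM in untreated embryos (SD, n = 4 each). arl5c (ENSDARG00000035719), a small GTPase gene of the Arf-like family, averaged 88.7 ± 9.65 and 87.7 ± 12.4 CPM in oligomycin embryos at 4 and 3 hpf, 31.3 ± 12.1 and 70.2 ± 18.7 CPM in actinomycin D embryos and 107 ± 12.7 and 69.2 ± 19.0 CPM in untreated embryos (SD, n = 4 each). BOC (ENSDARG00000074335), a co-receptor for Hedgehog ligands, and dchs1a (ENSDARG00000070025), a large protocadherin related to the Fat ligand Dachsous, had the smallest untreated L changes of this group, at 0.22 and 0.01. Their L changes in oligomycin embryos were -0.13 and 0.31, neither past the test. For dchs1a the actinomycin D level at 3 hpf averaged 11.6 ± 5.01 CPM, against 6.84 ± 1.11 CPM in untreated embryos of that age (SD, n = 4 each), with overlapping libraries.

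Of the 4 members linked to transcription and chromatin, ovol1a (ENSDARG00000076472) had the widest gap. It encodes an Ovo-like zinc finger transcription factor, a family known for roles in epithelial differentiation. Its level was 38.1, 43.5, 40.8 and 61.4 CPM in oligomycin embryos at 4 hpf and 43.6, 31.9, 36.5 and 36.4 CPM at 3 hpf. It was 15.8, 13.7, 13.7 and 21.8 CPM in actinomycin D embryos at 4 hpf and 24.4, 27.3, 41.3 and 37.4 CPM at 3 hpf. It was 153, 162, 74.9 and 95.7 CPM in untreated embryos at 4 hpf and 30.3, 42.2, 38.6 and 41.5 CPM at 3 hpf. The 4 hpf libraries of the 3 treatments did not overlap, with oligomycin between actinomycin D and untreated embryos, and the oligomycin libraries of both times overlapped. The actinomycin D and untreated values chose the gene, so this order carries no test. The fitted log2 fold change with time in oligomycin embryos was 0.35 (SE 0.233, adjusted p 0.868) by edgeR. It was 0.15 without oligomycin 4 hpf replicate 4, the highest of the 4 libraries, and 0.12 in the first library series and 0.54 in the second.

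maff (ENSDARG00000028957) encodes a small Maf protein, a bZIP factor that pairs with larger partners on DNA. It averaged 15.8 ± 3.43 and 18.6 ± 3.43 CPM in oligomycin embryos at 4 and 3 hpf, 7.83 ± 1.54 and 15.2 ± 4.93 CPM with actinomycin D and 25.6 ± 9.88 and 13.7 ± 2.47 CPM in untreated embryos (SD, n = 4 each). pogzb (ENSDARG00000076542), a zinc finger protein of the chromatin-linked POGZ family, had the lowest change of any member with actinomycin D, at -1.32 in L. It averaged 41.2 ± 7.63 and 41.0 ± 9.63 CPM in oligomycin, 14.2 ± 4.64 and 36.9 ± 11.8 CPM in actinomycin D and 46.5 ± 8.79 and 33.4 ± 2.91 CPM in untreated embryos at 4 and 3 hpf (SD, n = 4 each). BAP1 (ENSDARG00000063051) encodes a deubiquitinase that acts on histone H2A. Its L changes were -0.04 with oligomycin, -0.65 with actinomycin D and 0.07 in untreated embryos. None of these 4 was called with time in oligomycin embryos.

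Among the members of RNA processing and ribosome assembly, PCF11 (ENSDARG00000044625) encodes a factor for cleavage of the pre-mRNA 3′ end and for termination of transcription. It stood at 196, 144, 204 and 249.8 CPM in oligomycin embryos at 4 hpf and 173, 152, 119 and 191 CPM at 3 hpf. It stood at 63.2, 61.4, 91.6 and 101 CPM in actinomycin D embryos at 4 hpf and 149, 123, 171 and 183 CPM at 3 hpf, and at 292, 227, 245 and 237 CPM in untreated embryos at 4 hpf and 162, 176, 165 and 192 CPM at 3 hpf. The untreated libraries of the 2 times did not overlap, nor did those of actinomycin D, while the oligomycin libraries did. SNRPF (ENSDARG00000105037), a core Sm protein of the spliceosomal snRNPs, averaged 148 ± 28.2 and 161 ± 30.9 CPM in oligomycin, 76.7 ± 14.4 and 159 ± 31.4 CPM in actinomycin D and 135 ± 33.2 and 142 ± 23.9 CPM in untreated embryos at 4 and 3 hpf (SD, n = 4 each). RRP15 (ENSDARG00000013478) serves ribosomal RNA processing and GNL3L (ENSDARG00000020595) is a nucleolar GTPase. Their L changes in oligomycin embryos were 0.28 and -0.39, against 0.52 and -0.06 in untreated embryos.

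In all, 5 members encode mitochondrial proteins. NDUFS6 (ENSDARG00000056583) is a subunit of complex I and cox8a (ENSDARG00000095273) one of complex IV, whereas mrpl20 (ENSDARG00000090462), mrps21 (ENSDARG00000070985) and MRPL37 (ENSDARG00000062916) belong to the mitochondrial ribosome. NDUFS6 averaged 29.7 ± 5.43 and 29.4 ± 6.65 CPM in oligomycin, 9.57 ± 3.06 and 22.2 ± 5.20 CPM in actinomycin D and 25.5 ± 7.84 and 22.9 ± 5.01 CPM in untreated embryos at 4 and 3 hpf (SD, n = 4 each). All 4 oligomycin libraries at 4 hpf exceeded those of actinomycin D, and they overlapped those of untreated embryos. mrpl20 averaged 10.7 ± 3.62 and 8.35 ± 3.83 CPM in oligomycin, 6.04 ± 1.95 and 11.5 ± 4.79 CPM in actinomycin D and 18.8 ± 6.16 and 9.12 ± 3.51 CPM in untreated embryos (SD, n = 4 each), and it was the only one of the 5 with an untreated L change above 0.5. Over the 5 genes the L change in oligomycin embryos ran from -0.36 to 0.33 with none called by edgeR (adjusted p 0.889 or more). Other genes of these complexes and of the mitochondrial ribosome, such as NDUFS3, cox7b and MRPL12, were lower with actinomycin D but not held in untreated embryos. The share of mitochondrial genes among the members was not compared with that among other genes.

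Another 3 members serve cell division. ccnb3 (ENSDARG00000034855), a B-type cyclin, averaged 267 ± 34.7 and 216 ± 29.2 CPM in oligomycin, 149.8 ± 57.3 and 256 ± 66.1 CPM in actinomycin D and 281 ± 59.2 and 245 ± 59.8 CPM in untreated embryos at 4 and 3 hpf (SD, n = 4 each). mis18a (ENSDARG00000035333) helps to load the centromeric histone CENP-A, and kif20bb (ENSDARG00000040110) is a kinesin gene. In untreated embryos mis18a averaged 17.2 ± 6.18 CPM at 4 hpf and 17.2 ± 2.96 CPM at 3 hpf, while kif20bb averaged 33.7 ± 10.6 and 21.7 ± 3.58 CPM (SD, n = 4 each). In oligomycin embryos the L changes of ccnb3, mis18a and kif20bb were 0.31, -0.13 and 0.20, with none called by edgeR.

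The member with the highest CPM in actinomycin D embryos at 3 hpf was stard14 (ENSDARG00000031929), which encodes a protein with a lipid-binding START domain. It stood at 333, 364, 367 and 379.7 CPM in oligomycin embryos at 4 hpf and 374, 363, 292 and 342 CPM at 3 hpf. It stood at 129, 124, 197 and 238 CPM in actinomycin D embryos at 4 hpf and 326, 283, 336 and 343 CPM at 3 hpf, and at 529.8, 584, 466 and 401 CPM in untreated embryos at 4 hpf and 354, 289.9, 327 and 356 CPM at 3 hpf. At 4 hpf the 3 treatments did not overlap, with oligomycin in the middle, and the oligomycin libraries of the 2 times did. Here too the outer groups chose the gene, so the order carries no test. ENSDARG00000102572, plotted under its clone-based symbol and with no role given here, averaged 15.7 ± 4.32 and 14.0 ± 4.95 CPM in oligomycin, 7.10 ± 2.44 and 11.6 ± 4.23 CPM in actinomycin D and 33.1 ± 10.3 and 8.92 ± 1.80 CPM in untreated embryos (SD, n = 4 each). ALKBH4 (ENSDARG00000052247), a dioxygenase of the AlkB family, had L changes of 0.48 in oligomycin, -1.31 in actinomycin D and 0.35 in untreated embryos.

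The other 6 members were PFDN6 (ENSDARG00000037108), a subunit of the prefoldin chaperone, ASPH (ENSDARG00000078703), an aspartate beta-hydroxylase, slc6a16b (ENSDARG00000102377) of the SLC6 transporter family, fut9b.1 (ENSDARG00000067524), a fucosyltransferase gene, zgc:110269 (ENSDARG00000012325), and ENSDARG00000115737, which has no symbol. Their mean levels in actinomycin D embryos at 3 hpf lay between 11.7 and 21.8 CPM. In untreated embryos their L changes lay between -0.03 and 0.26, and in oligomycin embryos between -0.39 and 0.17. In RefSeq's assembly GRCz12tu, 31 of the 32 members were matched by symbol or synonym, and 8 overlap another annotated gene, namely PCF11, AMOTL2, kif20bb, mis18a, dchs1a, MRPL37, ENSDARG00000102572 and fut9b.1, the last with 5 further fut9b copies. The strand setting of the counting is not given in the sources used here, so counts of these 8 genes are uncertain.

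For comparison in oligomycin embryos, the members were set beside the 901 other genes that were also lower by 0.6 or more in L with actinomycin D but were lower by more than 0.1 in untreated embryos too. The median L change of those 901 genes was -0.20 in oligomycin, -0.84 in actinomycin D and -0.90 in untreated embryos. Over all 11238 genes tested the medians were -0.05, 0.01 and -0.09. In oligomycin embryos 18 of the 32 members (56.2%) met the rule's own limit for a held level, as did 234 of the 901 genes (26.0%) and 58.8% of all genes tested. With time in oligomycin embryos, L was lower by 0.6 or more in 0 of the 32 and 10 of the 901 genes (1.11%). The share was 1.13% of all genes tested and 0.387% of genes at the CPM floor, which both lists had to reach. By edgeR 0 of the 901 were called higher and 1 lower in oligomycin embryos, and 0 higher and 2 lower with a block for library set. At an unadjusted p under 0.05, 0 of the 901 were higher and 57 lower (6.33%). Of all genes tested, 5.22% were higher and 2.14% lower there, and of genes at the CPM floor 2.69% and 2.41%. The members' share of held genes was near that of all genes and above that of the 901, and the difference between the 2 lists was not tested.

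**Figure D4:**
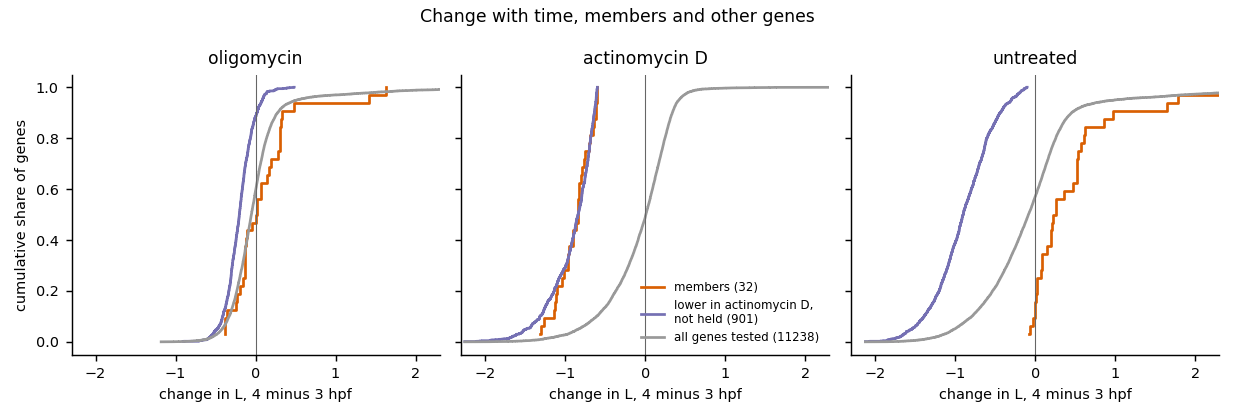
Cumulative share of genes by change in L from 3 to 4 hpf for the 32 members, the 901 genes lower in actinomycin D and not held in untreated embryos, and all 11238 genes tested, in each treatment; a few genes lie beyond the axes. In oligomycin embryos the curve of the 901 genes lies furthest left, with 46.9% of the members, 88.3% of the 901 and 59.3% of all genes below 0, and the actinomycin D and untreated panels show the values that chose the 2 lists.

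At 4 hpf, 19 of the 32 members had a lower L in oligomycin than in untreated embryos, as did 5093 of all 11238 genes tested. The median difference was -0.07, beside 0.05 over all genes tested. L uses total counts, and the fitted all-gene median was -0.04 with TMM scaling and 0.05 with total counts. The comparison of oligomycin with untreated embryos shares its untreated libraries with the rule, so it carries no test over the members. The lowest differences were -1.49 for nav2b, -1.38 for ovol1a and -1.03 for ENSDARG00000102572. The highest were 0.52 for mis18a and 0.38 for pim2. At 3 hpf the same difference was already 0.65 for mis18a, and it was -0.51 for pim2. For nav2b, ovol1a and ENSDARG00000102572 it was 0.16, -0.04 and 0.60 at 3 hpf. In 4 members, ovol1a, ENSDARG00000102572, stard14 and AMOTL2, all oligomycin libraries lay below all untreated ones, as in 7.35% of all genes tested, and in 0 members did they all lie above, as in 14.5% of genes. Against actinomycin D at 4 hpf, whose low values chose the members, all oligomycin libraries were above in 22 of the 32 members, beside 11.3% of all genes, and below in 0, beside 5.13%. Because those low values chose the members, this excess carries no test. What the choice adds to it cannot be told apart from a treatment difference. L was higher in oligomycin than in actinomycin D embryos in all 32 members and in all 901 comparison genes, with median differences of 0.92 and 0.78.

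The difference between oligomycin and untreated embryos had a different size in the 2 library series. In the first series the median over the 32 members was -0.35, with 23 members lower in oligomycin embryos. In the second it was -0.01, with 17 lower. Over all genes tested the medians of this difference in L, which uses total counts, were 0.11 and 0.002. For nav2b the differences were -2.71 and -0.33 in the first and second series, for ovol1a -1.92 and -0.73, and for kif20bb -1.35 and -0.02. The untreated values differed as well, and the median untreated L change of the members was 0.54 in series 1 and -0.03 in series 2, with actinomycin D medians of -0.94 and -0.85. The summed level of the first zygotic genes in untreated embryos at 4 hpf moved with this, at 5749 and 5359 CPM in the first series and 3330.0 and 3236 CPM in the second. In oligomycin embryos at 4 hpf the sum was 629 and 1444 CPM in the first series and 1193 and 2969.8 CPM in the second. The part of these sums in the result was not tested.

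**Figure D5:**
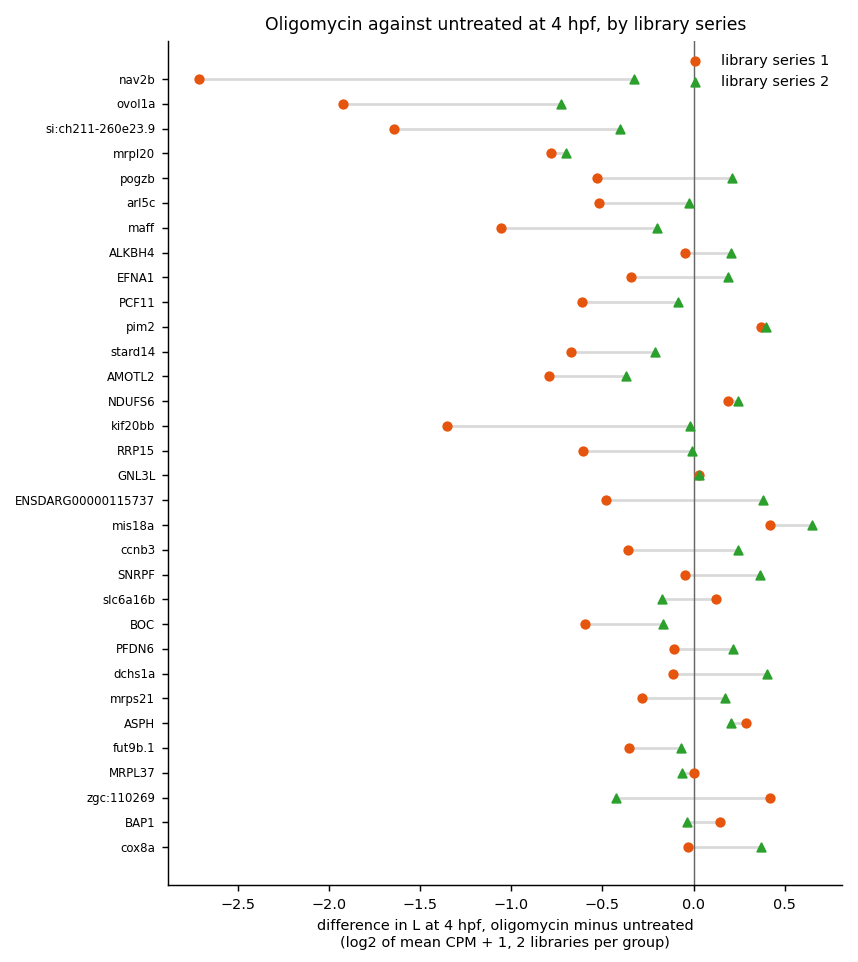
Difference in L at 4 hpf, oligomycin minus untreated, for each member in the first (circles) and second (triangles) library series, with 2 libraries per group in each. Most members lie further to the left in the first series, where the median is -0.35, than in the second, where it is -0.01.

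The rule was then applied to the 12 libraries of one series and the genes it chose were measured in the other, by edgeR's quasi-likelihood test with adjustment over all genes tested there, so that the measured libraries had no part in the choice. The first series chose 100 genes, and in the second 56 of them were again lower by 0.6 or more with actinomycin D (56.0%, beside 11.0% of all genes at the CPM floor), while 38 were held in untreated embryos (38.0%, beside 53.2%). The medians of their fitted log2 fold changes with time were -0.70 with actinomycin D, with 21 called lower and 0 higher (3.19% and 0.0438% of all genes), and -0.25 in untreated embryos, with 5 called higher and 7 lower (4.51% and 6.94% of all genes). The share held in untreated embryos of the second series was thus below that of all genes at the CPM floor. The share lower with actinomycin D was above it. Genes lower with actinomycin D were seldom held in untreated embryos, at 3.53% over both series together, so the 53.2% is not a like base for the 38.0%.

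The second series chose 32 genes, of which 18 were among the 32 members. In the first series 15 of the 32 chosen were again lower by 0.6 or more with actinomycin D (46.9%, beside 13.7% of all genes at the CPM floor). In untreated embryos 27 of them were held (84.4%, beside 45.9%, which again is not a like base). Their median log2 fold changes with time were -0.62 with actinomycin D, with 4 called lower and 0 higher (1.93% and 0.0268% of all genes), and 0.53 in untreated embryos, with 10 called higher (7.62%) and 0 lower (9.15%). At 4 hpf 18 of the 32 were called lower in actinomycin D than in untreated embryos of that series (7.08% of all genes) and 0 higher (3.94%), with a median of -1.47, whereas of the 100 genes of the first series 11 were called lower in the second (3.51%) and 0 higher (0.613%), with a median of -0.34.

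Oligomycin could be tested against untreated embryos at 4 hpf in the same way. Among the 32 genes of series 2, edgeR called 8 lower with oligomycin than without treatment at 4 hpf in series 1 (8.96% of all genes). It called 0 higher (11.5%). At an unadjusted p under 0.05, 13 were lower and 0 higher (beside 16.3% and 17.5% of all genes). Their median log2 fold change, oligomycin against untreated, was -0.47, beside -0.02 over all genes. The 8 called lower were nav2b, ovol1a, ENSDARG00000102572, maff, stard14, PCF11, AMOTL2 and BOC. Of the 100 genes chosen in the first series, edgeR called 0 lower (0.0613% of all genes) and 0 higher (1.38%) in the second, where 2 were lower and 10 higher at an unadjusted p under 0.05 (beside 2.79% and 9.84% of all genes) and the median was 0.18. Between 3 and 4 hpf in oligomycin embryos edgeR called 0 of either list. At an unadjusted p under 0.05, 1 of the 32 genes was higher and 0 lower in the first series (beside 2.11% and 0.428% of all genes), and 9 of the 100 were higher and 4 lower in the second (beside 5.48% and 3.90%). Of all genes 0.0535% were called higher there in series 1 and 0 in series 2. With just 2 libraries of each group, the series were not tested against each other.

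In both series alone 14 genes met the rule: nav2b, ovol1a, pogzb, arl5c, EFNA1, PCF11, pim2, stard14, AMOTL2, ENSDARG00000115737, mis18a, BOC, ASPH and zgc:110269. Both series hold equal numbers of libraries per group, so a gene that meets the rule in each must meet it over both. That all 14 were members is therefore no further support for the list. The 14 genes are 14.0% of the genes chosen in the first series and 43.8% of those chosen in the second. Of all genes at the CPM floor, the rule chose 100 of 8265 in the first series and 32 of 8219 in the second. Another 10 members met it in the first series alone, 4 in the second alone, and 4, GNL3L, slc6a16b, dchs1a and cox8a, in neither. When each of the 16 actinomycin D and untreated libraries was left out in turn, 17 members stayed in the list every time, and ENSDARG00000102572, kif20bb and fut9b.1 dropped out most often, in 4 of the 16.

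Several lists of related genes were read for overlap with the members. Of the 8265 genes at the CPM floor just 32 were members, so lists of this size would hold few or none at that share. Of 30 first zygotic genes, 27 were tested, 1 reached the CPM floor of the rule and 0 were members, while 10 were called higher with time in oligomycin embryos and 0 lower (13 and 0 with a block for library set). Of 19 maternal transcripts known to be cleared, 18 reached the floor. Lower by 0.6 or more with actinomycin D were 10, among them ZAR1L, BTG4 and MOS, while 0 were members and 0 were called in oligomycin embryos. The summed level of this list in untreated embryos was 12292 CPM at 3 hpf and 6878 CPM at 4 hpf. The rule leaves out RNAs lower there, so the lack of members is no independent result. Among 52 cell cycle and checkpoint genes, 34 reached the floor, 7 were lower with actinomycin D, and ccnb3 was the only member, while 1 gene, WEE1, was called higher in oligomycin embryos. With the block WEE1 was not called and 3 genes of this list were, cdkn1a, GADD45A and GADD45B. Of 41 deadenylation and decay genes 34 reached the floor and 4 were lower with actinomycin D, and of 46 short-lived regulators and feedback genes 14 reached it and 7 were lower, with 0 members in either list. NOCT was among those 4 and met the rule, and the decay list holds 0 members because it was set aside by name. BTG1 of the decay list and ier2b, ID1, klf2a and nfkbiaa of the short-lived list were called higher with time in oligomycin embryos. With the block ID1, ier2b and nfkbiaa were called again, klf2a was not, and SPRY4 and SMAD7 were called as well. None of 33 hnRNP and SR splicing factor genes was a member, 28 reached the floor, 0 were lower by 0.6 with actinomycin D and 0 were called in oligomycin embryos, although hnrnpa0a was called higher with the block.

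Markers of the enveloping layer (10 genes), of the yolk syncytial layer (4) and of germ plasm (8) held 0 members. None of the enveloping layer or yolk syncytial layer genes reached the CPM floor, so those lists could not hold a member. All 8 germ plasm genes reached it. The summed level of the enveloping layer list was 272 CPM in oligomycin embryos at 4 hpf and 78.9 CPM at 3 hpf, and krt8 and krt18a.1 were called higher at 4 hpf there. In actinomycin D embryos it was 12.5 CPM at 4 hpf and 4.98 CPM at 3 hpf. In untreated embryos it was 1185 CPM at 4 hpf and 159 CPM at 3 hpf, and the part of such cells in the member values was not tested. GATA5 of the yolk syncytial layer list was called higher with time in oligomycin embryos, and of the germ plasm list 0 were called and 2, ca15b and DAZL, were lower by 0.6 or more with actinomycin D.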

How the data were processed

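RNA of whole zebrafish embryos was measured in 24 libraries, 4 in each of 6 groups, with the QuantSeq kit of Lexogen, which reads transcripts from their 3′ ends. The deposited values are raw read counts per gene; Bowtie2 2.3.4.1, featureCounts, Subread 1.6.2 and GRCz11 are named in the submitters' processing notes, and the handling of molecular identifiers and strand is not given in the sources used here. Nothing in the labels says that replicates came from separate clutches, so p-values measure the spread between these libraries, which may be technical. No 2 libraries of a group agreed within sampling noise, with a mean chi-square per gene of at least 3.88 over 36 pairs.

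CPM was computed from each file's total count. Group means, with a pseudocount of 1 CPM on the log2 scale, gave L and the members. The test of oligomycin 4 hpf against 3 hpf was edgeR's quasi-likelihood test (edgeR 4.0.16, R 4.3.3) with TMM scaling and filterByExpr over all 24 libraries, calling genes at an adjusted p under 0.05; it was tested on simulated data first. Replicate numbers are library sets read from the titles. Same-numbered oligomycin libraries of the 2 times deviated together (correlations 0.507, 0.523, 0.277 and 0.614), so the fit with the set as a block stands beside the unblocked one where it differs.

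The members and all gene lists were chosen with earlier results of these data known, and the grouping by role was made with values in view. Genes named individually were ranked within the members by the gap between untreated and actinomycin D changes, by the oligomycin fold change, by level in actinomycin D embryos at 3 hpf, by list membership, or lay next to a threshold; the other members are named for completeness. Alternatives covered scaling, low-count filters, DESeq2 1.42.0, the block, each library series, the oligomycin libraries alone, the rule's thresholds and leaving out each library. RefSeq gene records of GRCz12tu gave names, and gene positions in that assembly gave the overlaps. No coordinates are printed, because the counts refer to GRCz11, and overlaps in GRCz11 itself were not examined. Promoter and protein features were not analysed here.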

Additional observations from a re-analysis of the deposited data

Results flagged for a closer look

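In all, 198 sets of 4 values were examined, 192 of them levels of a member in 1 group. By Dixon's criterion 11 held a library far from the other 3. Chance gives about 1 in 20, so the number flagged is near what chance gives. In oligomycin embryos at 4 hpf, nav2b was at 73.7 CPM in replicate 4, against 18.3 to 21.3 CPM in the others, pogzb at 29.8 CPM in replicate 2, against 44.3 to 45.9 CPM, and GNL3L at 5.67 CPM in replicate 3, against 9.36 to 9.74 CPM. In oligomycin embryos at 3 hpf, ENSDARG00000115737 was at 12.8 CPM in replicate 4, against 10.1 to 10.3 CPM in the others, and BOC at 15.8 CPM in replicate 3, against 22.7 to 23.9 CPM.

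In actinomycin D embryos at 4 hpf, slc6a16b was at 4.50 CPM in replicate 4, against 7.46 to 7.90 CPM in the others, ASPH at 14.9 CPM in replicate 1, against 8.30 to 9.14 CPM, and zgc:110269 at 8.05 CPM in replicate 3, against 13.2 to 14.2 CPM. In untreated embryos at 3 hpf, maff was at 17.3 CPM in replicate 4, against 11.9 to 12.8 CPM in the others, ENSDARG00000115737 at 4.69 CPM in replicate 3, against 12.7 to 13.9 CPM, and BOC at 26.2 CPM in replicate 2, against 20.9 to 21.7 CPM.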

How the results depend on the processing

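The number of members called higher by edgeR between 3 and 4 hpf in oligomycin embryos was 1 and became 0 with no low-count filter, with 10 counts required in every library, in the first or second library series alone, in the 8 oligomycin libraries alone and without library set 2, the last chosen after seeing the data. It was 2 by DESeq2, which also called nav2b (adjusted p 0.00586), and 1 with the library set as a replicate block, where pim2 stayed called and no other member's call changed. Leaving out 1 library at a time gave 0 to 2, the 0 arising without replicate 1 or 3 of oligomycin at 3 hpf or replicate 4 at 4 hpf, and the 2 without replicate 1 at 4 hpf. None was called lower in any of these settings. The cause of these shifts was not tested.

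The rule gave 32 genes, and 15 with a floor of 20 CPM, 59 with a floor of 5 CPM, 21 with an actinomycin D change of -0.8 or less, 95 with -0.4 or less, 100 in the first series alone, and 34 to 52 when 1 library was left out, the 52 without untreated 3 hpf replicate 4. The median L of oligomycin minus untreated embryos at 4 hpf, -0.07, was -0.35 in the first series alone and -0.18 to -0.02 with 1 library left out, and the median change with time in oligomycin embryos was -0.10 to 0.11 with 1 library left out. With the stricter limit of -0.8 the first series chose 52 genes in place of 100, and the second 18 in place of 32. Actinomycin D levels fell significantly short of untreated ones for 7 of the 52, beside 11 of the 100 and 3.51% of all genes. Oligomycin levels did so for 5 of the 18, beside 8 of the 32 and 8.96% of all genes. The lists differ in size, so the smaller counts alone do not show a loss.

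Of 720 values for 22 named members, 17 values in 9 genes turned sign, none of them called by the test in any of these settings. In the first series alone these were ENSDARG00000102572 at -0.36, pogzb at -0.051, arl5c at -0.13, stard14 at -0.067, slc6a16b at 0.10, fut9b.1 at 0.23 and MRPL37 at 0.049, and in the second SNRPF at 0.030. With 1 library left out SNRPF ranged from -0.20 to 0.055, pogzb from -0.11 to 0.17, arl5c from -0.034 to 0.15 and EFNA1 from -0.27 to 0.48. At the depth of these libraries members near the 10 CPM floor rest on few counts.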
